A study of Mus musculus with 18 samples.

Results

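The genes described here are 10 genes of vascular smooth muscle and pericytes, the mural cells that wrap small and large blood vessels: Myh11, Acta2, Tagln, Cnn1, Pdgfrb, Rgs5, Cspg4, Notch3, Kcnj8 and Abcc9. They were chosen by name as markers of these cells, which makes 10 of the 21627 coding genes compared here, and each was taken with every listed region that touches its span or the 10 kb on either side. The data are chromatin immunoprecipitation with sequencing (ChIP-seq) of 4 targets in cardiomyocyte-enriched cells of C57BL/6J mice. In the KO mice, with the genotype G9a flox/flox; alphaMHC-MerCreMer +/-, a floxed gene of G9a was combined with a Cre recombinase that tamoxifen switches on. The Cre mice carried alphaMHC-MerCreMer +/- alone, so the recombinase is shared by both genotypes. There were 2 libraries of each genotype for each target, from separate biological replicates per the series' design text, and 1 input library of each genotype. The transgene is driven by the promoter of alpha myosin heavy chain, a protein of cardiomyocytes, and the labels give neither the age of the mice nor a tamoxifen treatment.

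Contractile smooth muscle and pericytes are both mural cells, and share the growth factor receptor that endothelial cells use to recruit them. Their contractile genes are driven by serum response factor bound to CArG boxes and by its coactivator myocardin, while Notch3 signalling keeps the mural state and a potassium channel gated by ATP relaxes the wall. G9a writes H3K9me2 and Polycomb repressive complex 2 writes H3K27me3, both marks of silent chromatin, and Mef2c is a transcription factor of heart and other muscle. In a bulk preparation enriched for cardiomyocytes, the chromatin at these genes comes from cardiomyocytes and from any mural cells left among them, and for each target fewer cells of a type and less signal per cell cannot be told apart. ChIP-seq does not measure expression, so the marker genes of cardiomyocytes could not serve here to check the labelled cell type.

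Each target had its own deposited list of regions that differ between KO and Cre, with 4 values per region, 2 for KO and 2 for Cre, on a scale not stated in the sources used here. The lists held between 504986 regions (H3K27me3) and 716658 regions (H3K9me2), and every region carried a -log10 p of the authors of at least 2. The depth of the libraries is unknown. Sums of listed values over a library ranged between 44305272 (Mef2c, KO) and 114744154 (H3K27me3, Cre), and they are sums over chosen regions, not a read depth. The log2 values of the 2 libraries of a genotype correlated across regions at r between 0.212 (G9a, KO) and 0.714 (H3K27me3, Cre). Of the values of 0 in the G9a list, 6938 and 22478 were in the KO libraries, against 2330 and 1892 in the Cre libraries. Below, the summed signal of a gene is the sum of its listed values in a library, and a log2 ratio sets the mean of KO over that of Cre, each with 1 added.

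All 10 genes had listed regions for all 4 targets. Their windows held 195 G9a regions, 149 H3K9me2 regions, 150 H3K27me3 regions and 151 Mef2c regions. H3K27me3 was the target in which the genes differed most from each other in listed signal. Listed signal leaves out sequence that was not listed as differing between KO and Cre, so it is not the whole H3K27me3 of a gene. Per kb of window, listed H3K27me3 signal was 52.8 times higher at Pdgfrb than at Abcc9 in KO libraries and 63.7 times higher in Cre libraries, and 8 of the 9 neighbouring pairs in the order of the genes did not overlap in their 2 libraries in either genotype. The order in KO libraries was Pdgfrb with 167 per kb, Kcnj8 with 130, Notch3 with 112, Cnn1 with 95.8, Rgs5 with 78.6, Myh11 with 62.6, Cspg4 with 44.5, Acta2 with 33.8, Tagln with 8.21 and Abcc9 with 3.17. In Cre libraries it was Pdgfrb with 188 per kb, Kcnj8 with 133, Notch3 with 113, Rgs5 with 108, Cnn1 with 85.6, Myh11 with 67.2, Cspg4 with 51.5, Acta2 with 24.0, Tagln with 4.80 and Abcc9 with 2.95. The overlapping neighbours were Kcnj8 and Notch3 in KO and Notch3 and Rgs5 in Cre. Kcnj8 and Abcc9, which encode the pore and the regulatory subunit of one channel and lie next to each other on chromosome 6, thus stood near the top and at the bottom of the same order. Their windows are unlike, however, with 26.8 kb for Kcnj8 and 135 kb for Abcc9. Of the 13 H3K27me3 regions of Kcnj8, 8 lay in the flanks. How much of the contrast comes from the windows was not tested. The place of Pdgfrb in KO rests on a flank region over the neighbouring genes Cdx1 and Gm52351 (61034501 to 61036750), since without it Pdgfrb had 129 per kb in KO libraries, below Kcnj8, and 157 in Cre libraries, where it stayed first. Its level was then 40.9 times that of Abcc9 in KO and 53.0 times in Cre.

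The other 3 targets spread less. Listed G9a signal per kb was highest at Pdgfrb, with 88.4 in KO and 110 in Cre, and lowest at Abcc9, with 11 in KO and 11.1 in Cre. Listed H3K9me2 signal per kb differed 2.44-fold between the highest and the lowest gene in KO and 3.62-fold in Cre, and 7 of 9 neighbouring pairs overlapped in each genotype. Mef2c signal was highest at Cnn1, with 39.9 per kb in KO and 45.5 in Cre, and lowest at Abcc9, with 11.5 in KO and 9.83 in Cre. These levels count listed sequence only. At Pdgfrb the regions covered 60.4% of the window for H3K27me3 and 55.8% for G9a, and at Abcc9 they covered 2.33% for H3K27me3 and 7.97% for G9a.

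**Figure D1:**
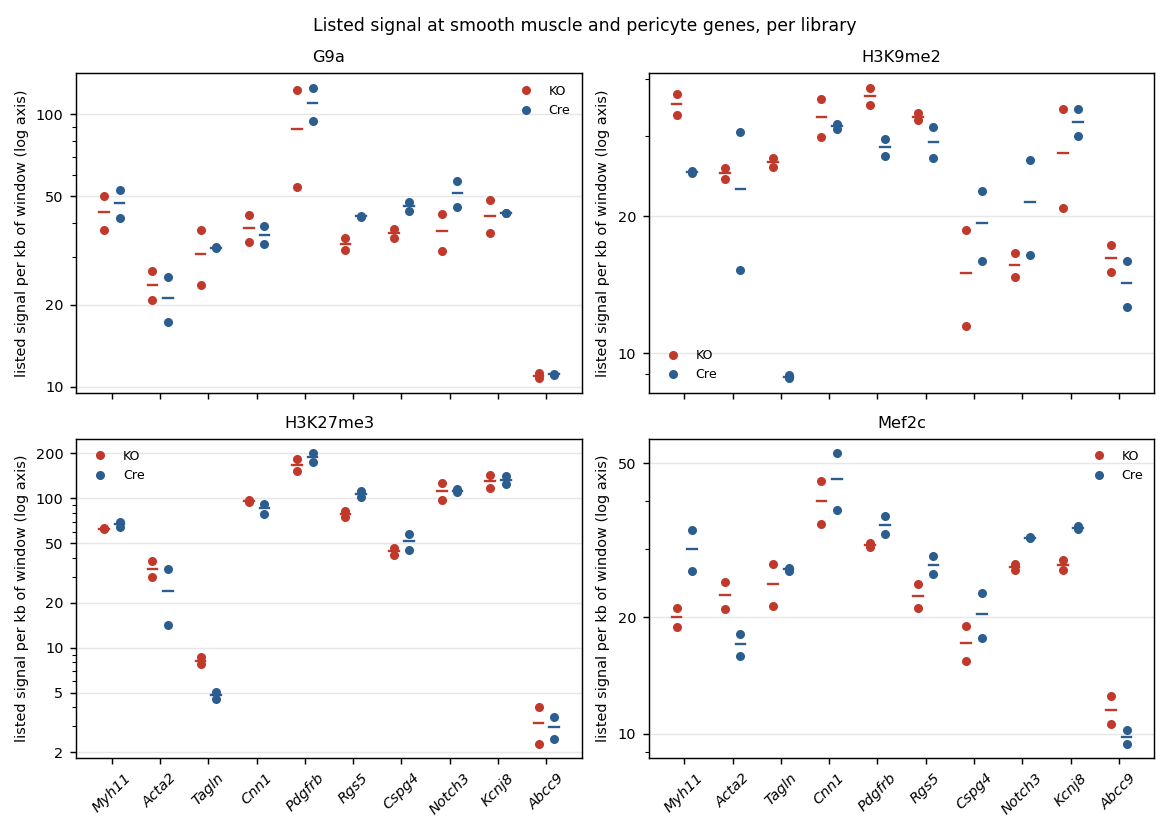
Listed signal per kb of gene window (log axis, deposited scale) at the 10 genes for G9a, H3K9me2, H3K27me3 and Mef2c. Points are the 2 KO libraries (red, left) and the 2 Cre libraries (blue, right), bars are their means. H3K27me3 spreads most across the genes, with Pdgfrb at the top (167 in KO, 188 in Cre) and Abcc9 at the bottom (3.17 in KO, 2.95 in Cre).

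Regions lower in KO outnumbered regions higher in KO at the 10 genes for G9a, H3K27me3 and Mef2c, and the reverse held for H3K9me2. For G9a 113 regions were lower and 82 higher in KO, which is 57.9% lower, against 61.5% lower in the whole list. For H3K9me2 62 were lower and 87 higher, 41.6% lower against 39.7% in the list. For H3K27me3 81 were lower and 69 higher, 54% lower against 63.3%. For Mef2c 91 were lower and 60 higher, 60.3% lower against 61.7%. The exact 95% intervals of these shares were 50.69 to 64.96% for G9a and 33.60 to 49.96% for H3K9me2. They were 45.68 to 62.16% for H3K27me3 and 51.99 to 68.13% for Mef2c. Of the 4 intervals, only that of H3K27me3 left out the share of its list. They cover counting error only and take neighbouring regions of a gene as independent, which was not tested. The KO and Cre values did not overlap at 61.5% of the G9a regions (61.5% in the list), 71.1% of the H3K9me2 regions (65.7%), 60.7% of the H3K27me3 regions (67.1%) and 64.9% of the Mef2c regions (65.9%). By limma with Benjamini-Hochberg adjustment over a whole list, 0 regions of the 10 genes passed 0.05 for any target, and the share of called regions in the lists was 0% for G9a, H3K9me2 and Mef2c and 0.00119% for H3K27me3. At an unadjusted p under 0.05 there were 11 G9a regions, 15 H3K9me2 regions, 21 H3K27me3 regions and 17 Mef2c regions, against 6.5%, 11.1%, 15.3% and 11.3% of the lists in that order. Since a region had to differ to be listed, such p-values are smaller than they should be. No single region could pass an exact test, since 2 values against 2 allow no two-sided p below 0.333.

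Over whole genes, 3 of the 40 summed signals (10 genes by 4 targets) passed the threshold of 0.05 in limma over all genes with a listed region. H3K9me2 rose at Tagln, H3K27me3 fell at Rgs5 and Mef2c fell at Myh11. The sums hold only regions that had to differ to be listed. Their p-values, here and at the other lists below, are therefore not those of an unselected test. The share of all genes called was 7.72% for H3K9me2 (7.29% higher in KO), 19.2% for H3K27me3, 11.1% for Mef2c and 0% for G9a, for which 0 of the 10 genes were called and 0 had an unadjusted p under 0.05. Summed signal was lower in KO for G9a at 8 of 10 genes (73.2% of all genes), for Mef2c at 8 (73.7%), for H3K27me3 at 6 (74.1%) and for H3K9me2 at 3 (29%). Both KO sums lay below both Cre sums at 3 genes for G9a (39.9% of all genes), at 5 for Mef2c (47.6%), at 2 for H3K27me3 (53.1%) and at 0 for H3K9me2 (11.7%). They lay above both Cre sums at 0 genes for G9a (9.51%), at 2 for Mef2c (10.5%), at 2 for H3K27me3 (12.6%) and at 4 for H3K9me2 (42.2%). The median log2 ratio of the 10 genes was -0.10 for G9a, against -0.25 over all genes, -0.22 for Mef2c (-0.26), -0.02 for H3K27me3 (-0.27) and 0.15 for H3K9me2 (0.22). These directions depend on the scaling of the libraries. With the 4 libraries of each target scaled to the same median, the median of all genes moved by 0.33 for Mef2c, 0.28 for H3K27me3, -0.29 for H3K9me2 and 0.32 for G9a, and the genes lower in KO became 1, 1, 7 and 4 of 10 in that order, against 43.6%, 48.1%, 57.3% and 43.0% of all genes. A log2 ratio no larger than this shift has no firm direction. The shares of all genes called depend on the same choices: with scaled libraries they were 2.79% for Mef2c, 2.43% for H3K27me3 and 4.43% for H3K9me2.

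**Figure D2:**
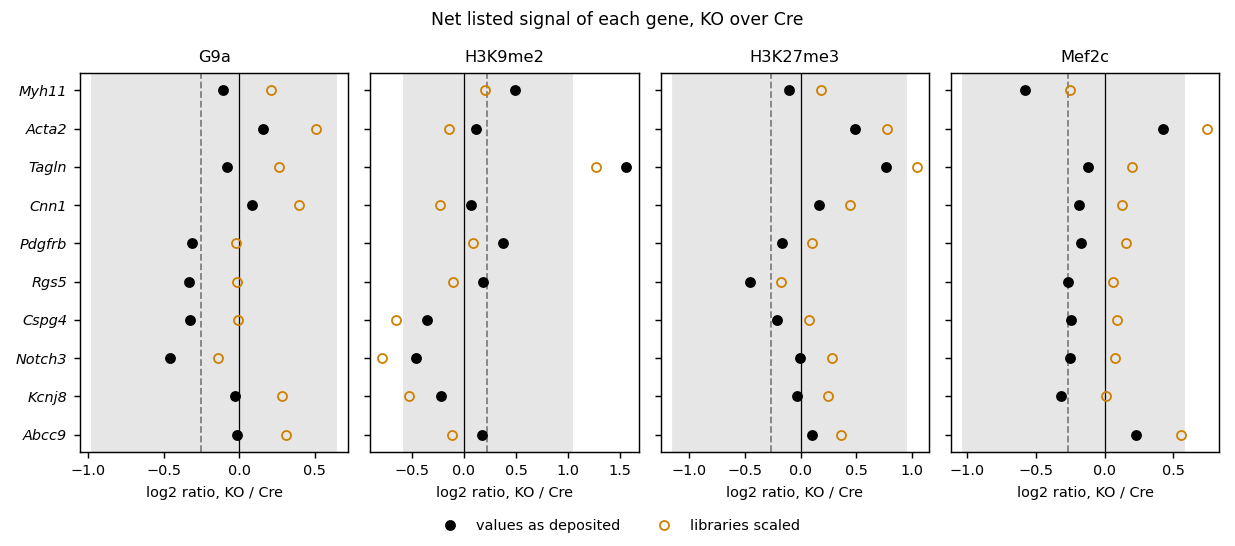
Log2 ratio of summed listed signal, KO over Cre, for each gene and target. Filled points use the values as deposited and open points the libraries scaled to the same median, the dashed line is the median of all genes as deposited, and the grey band runs between the 5th and 95th percentiles of all genes. Tagln for H3K9me2 (1.56) lies above the band with deposited values, and points of every target change sides of 0 with the scaling.

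Myh11 encodes the myosin heavy chain of smooth muscle, the most specific of the contractile markers, and spans chromosome 16 from 14194527 to 14292188 (mm10), with Cep20 and Nde1 also in its window. Its summed Mef2c signal was 2220 and 2488 in KO libraries, against 3952 and 3104 in Cre libraries. Both KO sums lay below both Cre sums, with a log2 ratio of -0.58 (standard error 0.17, limma adjusted p = 0.0292, n = 2 each). Of its 32 Mef2c regions 23 were lower in KO, against 61.7% of the whole list. The call was lost without either Cre value (adjusted p = 0.442 and 0.124) and with scaled libraries (log2 ratio -0.25, adjusted p = 0.385). Summed H3K9me2 was 4373 and 3933 in KO, against 2934 and 2964 in Cre, with the groups apart and a log2 ratio of 0.49 that did not pass (standard error 0.19, limma adjusted p = 0.0849). G9a sums were 5878 and 4428 in KO, against 6198 and 4905 in Cre, and overlapped. H3K27me3 sums were 7300 and 7429 in KO, against 8211 and 7599 in Cre, a log2 ratio of -0.10.

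The strongest Myh11 regions of G9a and Mef2c lay in the same few kb of the gene. In the authors' deposited list the G9a region from 14269251 to 14271500 had 196 and 78 in KO, against 639 and 429 in Cre, a log2 ratio of -1.95. The Mef2c region from 14270851 to 14271450 in the authors' deposited list had 21 and 0 in KO, against 106 and 144 in Cre, with a log2 ratio of -3.45. Neither region had KO values overlapping with Cre values. The G9a and Mef2c regions shared the stretch from 14271001 to 14271200 with an H3K27me3 and an H3K9me2 region, and all 4 were lower in KO. There the H3K9me2 region (14270251 to 14271200) had 142 and 13 in KO, against 131 and 177 in Cre, in the authors' deposited list, so its values overlapped. Just beside it, at 14271851 to 14272300, G9a, H3K27me3 and Mef2c were listed as lower and H3K9me2 as higher in KO, and both stretches were picked out after their values were seen. The strongest H3K9me2 region (14225701 to 14227000) had 409 and 157 in KO, against 95 and 77 in Cre, in the authors' deposited list. At the high-coordinate end of the gene, the H3K27me3 region from 14292001 to 14294700 in the authors' deposited list had 505 and 949 in KO, against 309 and 209 in Cre, a log2 ratio of 1.49, while 17 of the 34 H3K27me3 regions of the gene were lower in KO. Myh11 thus carried regions of both directions for every target, 22 lower and 23 higher for G9a.

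**Figure D3:**
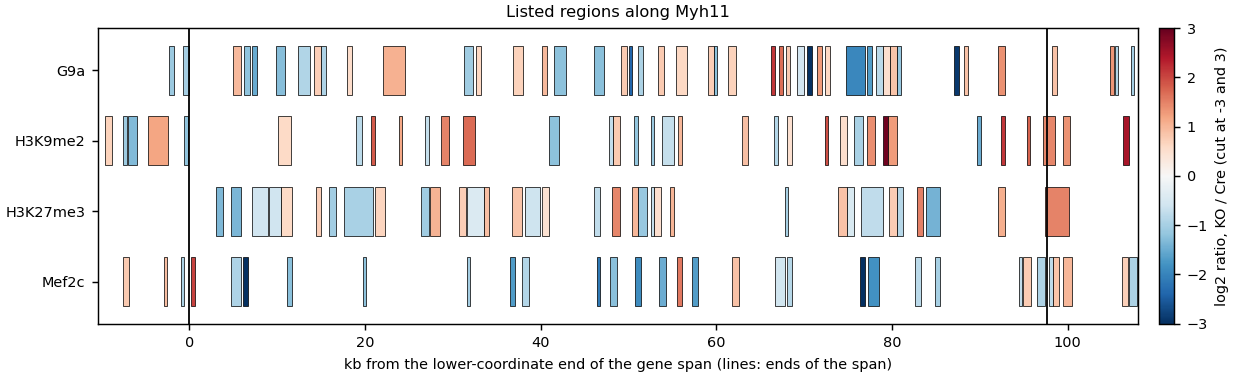
Listed regions along Myh11 for G9a, H3K9me2, H3K27me3 and Mef2c, by distance from the low-coordinate end of the gene span (kb). Each box is a region drawn to scale, blue where lower and red where higher in KO (log2 ratio), and the vertical lines are the ends of the span. Regions of both colours occur for every target, and blue prevails for Mef2c (23 of 32, against 61.7% of the whole list).

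Acta2 encodes smooth muscle alpha actin and spans chromosome 19 from 34240336 to 34255585, with the start at 34255373 on the minus strand. The H3K27me3 region over its start (34253251 to 34255400) had 401 and 659 in KO, against 379 and 78 in Cre, in the authors' deposited list. The KO values lay above both Cre values, but the 2 Cre values differed more from each other than the lower KO value did from the higher Cre value. Its log2 ratio was 1.21, with a -log10 p of 26.5. Over the gene, H3K27me3 sums were 1049 and 1336 in KO, against 1195 and 499 in Cre. Their log2 ratio of 0.49 was 1.26 (limma adjusted p = 0.0186) without the first Cre value and -0.0030 without the second, so 1 Cre library decides it. Mef2c over the start (34255101 to 34255900) had 78 and 78 in KO, against 134 and 128 in Cre, in the authors' deposited list. The sum over all 7 Mef2c regions went the other way, with 742 and 871 in KO, against 561 and 639 in Cre (log2 ratio 0.43, standard error 0.29, limma adjusted p = 0.327). Its strongest Mef2c region, inside the gene at 34247101 to 34247500, had 83 and 90 in KO, against 8 and 20 in Cre, in the authors' deposited list. The strongest H3K9me2 region of the window (34236401 to 34237200) had 15 and 30 in KO, against 248 and 140 in Cre, in the authors' deposited list, and touches the neighbouring gene Stambpl1. G9a sums of 735 and 938 in KO, against 890 and 608 in Cre, overlapped.

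Cnn1 encodes calponin, a regulator of actomyosin in smooth muscle, and spans chromosome 9 from 22099221 to 22109221, with the start at 22099253 on the plus strand. A wide H3K27me3 region covered its start (22098601 to 22101950), with 2117 and 1927 in KO, against 1591 and 1231 in Cre, in the authors' deposited list. The groups did not overlap, and the log2 ratio was 0.52 with a -log10 p of 23.5. Per kb this region held 3.31 times the signal of the median listed region. G9a over the start (22098851 to 22100300) had 389 and 193 in KO, against 159 and 191 in Cre, in the authors' deposited list, with a log2 ratio of 0.73 that ranged from 0.14 to 1.15 with a single value left out. The lower KO value was close to the higher Cre value. Mef2c there (22098901 to 22099900) had 155 and 64 in KO, against 232 and 125 in Cre, in the authors' deposited list, and overlapped. Over the whole window the sums of Cnn1 differed little: the log2 ratio was -0.19 for Mef2c, 0.16 for H3K27me3, 0.07 for H3K9me2 and 0.09 for G9a, with limma adjusted p between 0.456 and 0.918.

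The promoters of Acta2 and Cnn1 are shown because the H3K27me3 regions above cover the starts of these 2 genes. They are RefSeq sequences on GRCm38.p6, 250 bases before to 10 after the start, 5′ to 3′ on the gene's strand: Acta2 at chr19:34255364-34255623 (minus) and Cnn1 at chr9:22099003-22099262 (plus). Capitals mark 6-base matches to CANNTG, the binding sequence of basic helix-loop-helix factors, and 10-base CArG-like matches, which are CArG boxes with G or C at 1 of the 6 core bases. The matches do not overlap in these sequences.
Acta2: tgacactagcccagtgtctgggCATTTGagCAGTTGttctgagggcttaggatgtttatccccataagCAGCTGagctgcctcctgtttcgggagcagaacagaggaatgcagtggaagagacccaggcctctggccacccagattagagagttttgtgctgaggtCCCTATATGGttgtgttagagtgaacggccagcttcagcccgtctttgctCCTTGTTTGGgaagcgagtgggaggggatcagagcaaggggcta
Cnn1: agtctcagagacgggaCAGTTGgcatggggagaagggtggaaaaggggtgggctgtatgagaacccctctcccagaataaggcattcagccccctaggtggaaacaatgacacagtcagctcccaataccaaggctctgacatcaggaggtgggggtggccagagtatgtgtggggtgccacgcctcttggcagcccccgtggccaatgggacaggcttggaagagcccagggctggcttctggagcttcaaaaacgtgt
Acta2 holds CArG-like matches at -84 and -34 from the start and 3 CANNTG matches, and Cnn1 holds 1 CANNTG match at -234. The CArG-like form was added after these sequences had been read.

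Tagln encodes transgelin, an actin-binding protein of smooth muscle, and spans chromosome 9 from 45929628 to 45936058. In the whole list 39.7% of H3K9me2 regions were lower in KO, and all 5 at Tagln were listed as higher. Their sums were 679 and 710 in KO, against 233 and 237 in Cre. The groups lay far apart, with a log2 ratio of 1.56 (standard error 0.40, limma adjusted p = 0.00673, n = 2 each). However, all 5 regions touch a neighbouring gene, Pcsk7 or Sidt2, and 4 of them lie in the flanks. The strongest (45942451 to 45943250) touches Sidt2, with 227 and 190 in KO, against 3 and 58 in Cre, in the authors' deposited list. The single region over the span of Tagln (45930251 to 45930950) also touches Pcsk7, and had 145 and 116 in KO, against 114 and 0 in Cre, in the authors' deposited list. With the gene span alone the log2 ratio was 1.18 and the adjusted p 0.226, and the call was also lost without either KO value (adjusted p = 0.169 and 0.287). Tagln had 2 H3K27me3 regions, with sums of 205 and 229 in KO, against 121 and 133 in Cre (log2 ratio 0.77, limma adjusted p = 0.321). G9a and Mef2c sums overlapped between the genotypes, with log2 ratios of -0.08 and -0.12.

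Pdgfrb encodes the receptor through which PDGF-B recruits pericytes, and spans chromosome 18 from 61045127 to 61085067. Its G9a sums were 7340 and 3253 in KO, against 7505 and 5669 in Cre. The first KO library lay between the Cre libraries and the second below both. The log2 ratio of -0.31 (limma adjusted p = 0.573) became -1.02 (adjusted p = 0.0173) when the first KO value was left out and 0.16 when the second was. The strongest G9a region (61058251 to 61060000) had 176 and 104 in KO, against 444 and 359 in Cre, in the authors' deposited list. Mef2c in the same place (61059301 to 61059800) had 15 and 10 in KO, against 123 and 121 in Cre, in the authors' deposited list, with a log2 ratio of -3.19. Over the gene, Mef2c sums were 1815 and 1866 in KO, against 1970 and 2182 in Cre, apart but with a log2 ratio of only -0.17 (limma adjusted p = 0.568). H3K9me2 sums were 2296 and 2100 in KO, against 1774 and 1623 in Cre, also apart (log2 ratio 0.37, limma adjusted p = 0.295). H3K27me3 sums of 9097 and 10944 in KO, against 10502 and 12053 in Cre, overlapped. The densest H3K27me3 region of the 10 genes (61034501 to 61036750, 5.97 times the median listed region per kb) lies in the flank of Pdgfrb over Cdx1 and Gm52351, with 1946 and 2572 in KO, against 1488 and 2300 in Cre, in the authors' deposited list.

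Rgs5 encodes a regulator of G protein signalling that is abundant in pericytes, and spans chromosome 1 from 169655501 to 169695813 on the plus strand, with no other coding gene in its window. Its summed H3K27me3 was 4547 and 4929 in KO, against 6798 and 6197 in Cre. The groups were apart, with a log2 ratio of -0.46 (standard error 0.13, limma adjusted p = 0.0218, n = 2 each). The largest share came from a region of 10050 bases over the start (169652151 to 169662200), the widest of any H3K27me3 region at the 10 genes, with 2442 and 2501 in KO, against 3995 and 3293 in Cre, in the authors' deposited list (log2 ratio -0.56, -log10 p 47.8). In all, 13 of its 20 H3K27me3 regions were lower in KO, which is near the 63.3% of the whole list. The call of the sum was lost without the first KO value (adjusted p = 0.0911), without the first Cre value (0.167) or the second (0.0546), and with scaled libraries (log2 ratio -0.17, adjusted p = 0.519). G9a sums of 2118 and 1918 in KO, against 2555 and 2534 in Cre, were apart (log2 ratio -0.33, limma adjusted p = 0.505). Mef2c sums of 1276 and 1466 in KO, against 1737 and 1555 in Cre, were apart too (log2 ratio -0.26, limma adjusted p = 0.408). H3K9me2 sums of 1961 and 2034 in KO, against 1896 and 1621 in Cre, were apart in the other direction, with a log2 ratio of 0.18 (limma adjusted p = 0.645). The strongest H3K9me2 region, in the flank before the start (169653201 to 169653900), had 183 and 139 in KO, against 63 and 0 in Cre, in the authors' deposited list.

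Cspg4 encodes NG2, the proteoglycan used to stain pericytes, and spans chromosome 9 from 56865104 to 56899870. No listed region of any target lay over its start. Its G9a sums were 2081 and 1931 in KO, against 2426 and 2615 in Cre, and were apart (log2 ratio -0.33, standard error 0.25, limma adjusted p = 0.512). H3K9me2 sums of 628 and 1020 in KO, against 1242 and 872 in Cre, overlapped, as did H3K27me3 sums of 2568 and 2305 in KO, against 3166 and 2471 in Cre. Mef2c sums of 1037 and 846 in KO, against 1268 and 968 in Cre, overlapped as well. The strongest region of the gene was a G9a region past its end (56903851 to 56904500), with 44 and 3 in KO, against 155 and 198 in Cre, in the authors' deposited list. Within the gene, the strongest H3K27me3 region (56878701 to 56880300) had 95 and 168 in KO, against 300 and 401 in Cre, in the authors' deposited list, with a log2 ratio of -1.41.

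Notch3 encodes the Notch receptor of arterial smooth muscle and pericytes. It spans chromosome 17 from 32120820 to 32166896, with the start at 32166890 on the minus strand, 2.73 Mb from Ehmt2, the gene of G9a. Its G9a regions went in both directions. Of 24 regions 19 were lower in KO, against 61.5% of the whole list. Yet the region over the start (32166601 to 32168550) was higher, with 346 and 449 in KO, against 142 and 193 in Cre, in the authors' deposited list. That region had a log2 ratio of 1.24 and a -log10 p of 20.7. The sums of G9a were 2854 and 2087 in KO, against 3753 and 3026 in Cre, apart and with the lowest G9a ratio of the 10 genes (log2 ratio -0.46, standard error 0.27, limma adjusted p = 0.428). H3K27me3 was dense around the start, where the region from 32166551 to 32169500 had 1220 and 1110 in KO, against 1575 and 1281 in Cre, in the authors' deposited list. That region held 2.84 times the signal per kb of the median listed region. The strongest H3K27me3 region, inside the gene at 32156551 to 32158100, was higher in KO. It had 496 and 279 in KO, against 117 and 166 in Cre, in the authors' deposited list, with a log2 ratio of 1.45. Over the gene the H3K27me3 sums were 8427 and 6422 in KO, against 7642 and 7265 in Cre, a log2 ratio of -0.0056. Mef2c over the start (32166651 to 32167050) had 86 and 50 in KO, against 51 and 23 in Cre, in the authors' deposited list, and overlapped. The strongest Mef2c region (32159551 to 32160350) was lower, with 29 and 30 in KO, against 172 and 187 in Cre, in the authors' deposited list, with a log2 ratio of -2.57. Its sums were 1747 and 1808 in KO, against 2127 and 2110 in Cre, apart (log2 ratio -0.25, limma adjusted p = 0.379). H3K9me2 sums of 971 and 1096 in KO, against 1086 and 1758 in Cre, overlapped.

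Kcnj8 encodes Kir6.1 and Abcc9 encodes SUR2, the pore and the sulfonylurea receptor of the potassium channel of vascular smooth muscle and pericytes. Both lie on chromosome 6 on the minus strand, Kcnj8 from 142564837 to 142571614 and Abcc9 from 142587862 to 142702766, and SUR2 is also the receptor subunit of the channel of cardiomyocytes. Their windows shared 2 H3K9me2 regions and 1 region of each other target. At the start of Kcnj8, G9a (142570951 to 142571950) had 105 and 133 in KO, against 147 and 236 in Cre, in the authors' deposited list. Mef2c there (142571051 to 142571900) had 33 and 194 in KO, against 217 and 234 in Cre, in the authors' deposited list. Both regions were lower in KO without overlap, the Mef2c region with a wide gap between the KO libraries. The strongest G9a region of Kcnj8, in the flank before the start (142574301 to 142575000), was higher in KO. It had 209 and 156 in KO, against 91 and 41 in Cre, in the authors' deposited list, with a log2 ratio of 1.45. Mef2c sums of Kcnj8 were 709 and 752 in KO, against 920 and 905 in Cre, apart (log2 ratio -0.32, standard error 0.27, limma adjusted p = 0.431). H3K27me3 sums were 3157 and 3823 in KO, against 3766 and 3362 in Cre, a log2 ratio of -0.03. The sums of G9a were 1295 and 982 in KO, against 1163 and 1159 in Cre, and those of H3K9me2 were 558 and 919 in KO, against 922 and 804 in Cre. Both overlapped.

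Abcc9 was sparse in listed signal, and its start was covered by an H3K27me3 region of 600 bases (142702251 to 142702850) that was higher in KO, with 118 and 137 in KO, against 31 and 55 in Cre, in the authors' deposited list. The groups were apart, with a log2 ratio of 1.55 and a -log10 p of 9.70. Over the whole gene there were 5 H3K27me3 regions, with sums of 309 and 545 in KO, against 332 and 465 in Cre, a log2 ratio of 0.10 that went to -0.37 or 0.45 when a single value was left out. Its Mef2c sums were 1427 and 1688 in KO, against 1274 and 1378 in Cre, apart and higher in KO (log2 ratio 0.23, standard error 0.21, limma adjusted p = 0.491). Acta2 and Abcc9 were the 2 genes with higher Mef2c sums in KO, and the other 8 had lower ones. G9a sums of 1513 and 1451 in KO, against 1493 and 1504 in Cre, gave a log2 ratio of -0.016, although the strongest G9a region (142705701 to 142706750) had 74 and 27 in KO, against 254 and 194 in Cre, in the authors' deposited list. With the gene span alone the G9a ratio was 0.92 (adjusted p = 0.419), since the flank regions that were lower no longer counted. H3K9me2 sums were 2032 and 2329 in KO, against 2153 and 1706 in Cre.

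The promoters of Kcnj8 and Abcc9 are shown because a Mef2c region covers the start of Kcnj8 and the H3K27me3 region above that of Abcc9. They are RefSeq sequences on GRCm38.p6 of the same length and direction, Kcnj8 at chr6:142571605-142571864 (minus) and Abcc9 at chr6:142702265-142702524 (minus). Capitals mark CANNTG and, in Abcc9, the 10-base MEF2 motif, and no matches overlap.
Kcnj8: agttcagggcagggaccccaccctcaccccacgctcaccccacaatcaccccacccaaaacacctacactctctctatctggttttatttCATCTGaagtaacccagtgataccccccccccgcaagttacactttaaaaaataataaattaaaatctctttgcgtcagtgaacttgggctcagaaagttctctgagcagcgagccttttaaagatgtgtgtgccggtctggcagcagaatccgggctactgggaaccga
Abcc9: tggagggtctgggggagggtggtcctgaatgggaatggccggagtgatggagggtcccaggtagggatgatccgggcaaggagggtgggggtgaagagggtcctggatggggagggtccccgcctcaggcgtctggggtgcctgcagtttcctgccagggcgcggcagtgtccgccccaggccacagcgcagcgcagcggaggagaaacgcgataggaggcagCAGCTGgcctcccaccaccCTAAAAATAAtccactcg
The MEF2 motif of Abcc9 lies at -8 from the start, and no listed Mef2c region touched that start.

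RefSeq promoters were at hand for 7 of the 10 genes (Acta2, Cnn1, Rgs5, Cspg4, Notch3, Kcnj8 and Abcc9). Both strands of 300 bases, 250 before to 50 after the start, were searched in these and in all 32851 promoters of the table. The exact CArG box matched 0 of the 7 (1.63% of all promoters), the CArG-like form 1 (8.50%), the MEF2 motif 1 (3.19%) and CANNTG 5 (72.3%). No match says only that these letters are not in this window.

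Of the 7 genes with a known start, 6 had a listed region over it for at least 1 target. G9a regions over a start were higher in KO at Cnn1 and Notch3 and lower at Kcnj8. H3K27me3 regions over a start were higher at Acta2, Cnn1 and Abcc9 and lower at Rgs5 and Notch3. Mef2c regions over a start were listed as lower at Acta2, Cnn1 and Kcnj8 and as higher at Notch3, with overlapping values at Cnn1 and Notch3. For H3K9me2 no listed region covered any of these starts.

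**Figure D4:**
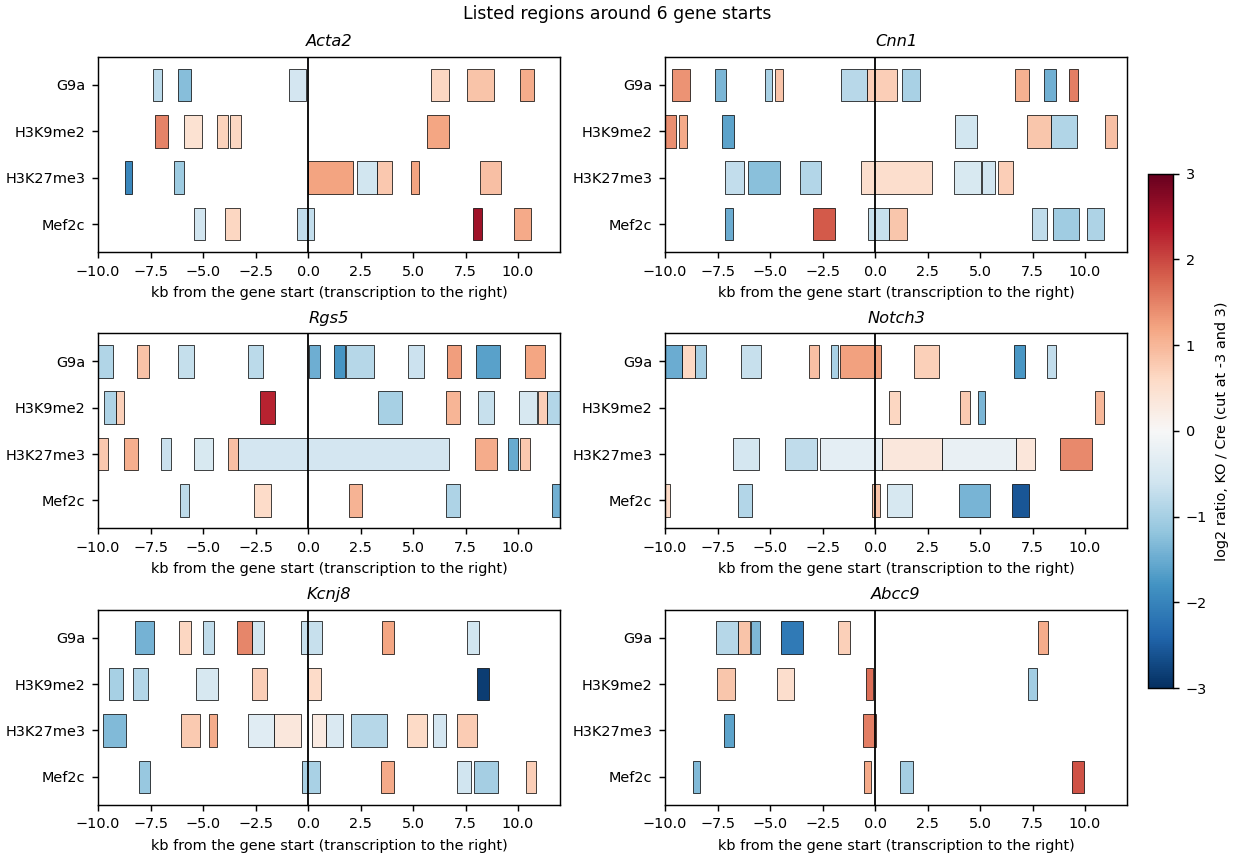
Listed regions around the starts of Acta2, Cnn1, Rgs5, Notch3, Kcnj8 and Abcc9 for the 4 targets, by distance from the start in kb with transcription to the right. Each box is a region drawn to scale, blue where lower and red where higher in KO (log2 ratio). H3K27me3 over the start is red at Acta2, Cnn1 and Abcc9 and blue at Rgs5 and Notch3, and no H3K9me2 box crosses a start.

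Regions of all 4 targets coincided at 25 stretches in 7 of the 10 genes (not at Acta2, Notch3 or Abcc9). At 6 of the 25 stretches all targets were lower in KO, at 3 all were higher and at 16 the directions were mixed. Among the 71654 such stretches in the lists, all 4 targets were lower at 19.9% and higher at 5.32%. The 6 lower stretches were at Cnn1 (1), Myh11 (2) and Pdgfrb (3), and the 3 higher ones at Myh11, at Pdgfrb and at Tagln, the last from 45941651 to 45942150, where the region touches Sidt2.

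Genes of the same pathways were read from lists named by their known roles. In the axis of serum response factor and myocardin (8 genes), 1 gene was called in the 4 targets: Mef2c signal fell at Klf4, a repressor of contractile genes, with sums of 234 and 304 in KO, against 731 and 643 in Cre (log2 ratio -1.35, limma adjusted p = 0.0166). That is 1 of the 7 genes with a Mef2c region, against 10.5% of all genes called lower, and the call was lost with scaled libraries. Among 12 other contractile genes, Mef2c signal was lower at 10 of the 11 with a region, against 73.7% of all genes, and fell at 3, against 10.5% of all genes called lower. The largest Mef2c ratios there were at Actg2, the enteric smooth muscle actin (-1.14, limma adjusted p = 0.0150), and Tpm2, a tropomyosin (-1.05, limma adjusted p = 0.0155). The median Mef2c ratio of these 11 genes was -0.55, against -0.26 over all genes. With scaled libraries 7 of the 11 were lower, against 43.6% of all genes, the median was -0.21 and 0 were called. H3K27me3 fell at 2 of the 10 with a region, Actg2 included (-0.51, limma adjusted p = 0.0321), which is near the 17.5% of all genes called lower. H3K9me2 rose at 1 of the 12, against 7.29% of all genes called higher. This was Pln, phospholamban, a gene cardiomyocytes use too (3.70 over a single region, limma adjusted p = 0.0418). The call of Pln was lost with scaled libraries, the span alone, 2 kb flanks or a mean of at least 50.

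Among 12 genes of the Notch pathway (ligands, the other receptors, Rbpj and targets), Mef2c signal was lower at 11 (73.7% of all genes). It fell at 1 (10.5%), Dll1, a Notch ligand (log2 ratio -1.03, limma adjusted p = 0.0145). With scaled libraries 7 of the 12 were lower and Dll1 was no longer called. H3K9me2 rose at Heyl, a Notch target of smooth muscle, with 780 and 1132 in KO, against 453 and 371 in Cre (log2 ratio 1.21, limma adjusted p = 0.0134), against 7.29% of all genes called higher, and H3K27me3 fell at 2 genes (17.5%). Of the 5 genes of PDGF ligands and the other receptor, H3K27me3 rose at 1, Pdgfa, a ligand (0.74, limma adjusted p = 0.0360), and 0 were called for the other 3 targets. Kcnj11 and Abcc8, the relatives of Kcnj8 and Abcc9, both passed for H3K27me3 and were higher in KO. Kcnj11 had sums of 513 and 481 in KO, against 206 and 171 in Cre (log2 ratio 1.39, limma adjusted p = 0.0259), and Abcc8 had 2161 and 2144 in KO, against 1658 and 1172 in Cre (log2 ratio 0.60, limma adjusted p = 0.0365). Among all genes 1.67% were called higher for H3K27me3, and the vascular pair Kcnj8 and Abcc9 was not. Whether the windows of Kcnj11 and Abcc8 share regions was not examined, so the 2 calls may not be separate. Of 8 other pericyte genes, 7 of the 7 with an H3K27me3 region were lower in KO (74.1% of all genes) and 0 were called (17.5%), and with scaled libraries 3 of the 7 were lower. In the same list 1 gene was called lower for Mef2c (10.5%) and 1 higher (0.598%), and 1 was called higher for H3K9me2 (7.29%).

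The other cell types of the heart were read the same way, 10 genes each. For H3K27me3, 5 of 10 endothelial genes were called lower in KO, among them Pecam1 (-0.67, limma adjusted p = 0.00990) and Vwf (-0.46, limma adjusted p = 0.00481), against 1 of the 10 mural genes, 2 of 10 fibroblast genes and 0 of 10 cardiomyocyte genes (1 of which was called higher), and 17.5% of all genes. For Mef2c, 3 of 10 endothelial and 2 of 10 cardiomyocyte genes were called lower, against 1 of the 10 mural genes, 0 fibroblast genes and 10.5% of all genes. The median H3K27me3 ratio was -0.02 for the mural genes, -0.32 for endothelial, -0.25 for fibroblast and -0.13 for cardiomyocyte genes. For H3K9me2, 2 cardiomyocyte genes and 1 mural gene were called higher, and 1 endothelial gene lower, against 7.29% and 0.434% of all genes. The 2 cardiomyocyte genes called for Mef2c and for H3K9me2 were the same, Myh6 and Myh7. Whether their windows share regions was not examined, so they may stand for 1 locus. For G9a 0 genes of any list were called. Many of the calls at these and the pathway lists were lost with other settings. With scaled libraries, 3 of their 6 H3K9me2 calls, 4 of their 15 H3K27me3 calls (Kcnj11, Abcc8, Pdgfa and Mybpc3, all higher) and 1 of their 12 Mef2c calls kept call and direction. Without the first Cre value 0 of the 12 Mef2c calls were kept, and 2 when the second Cre value was left out. Of the 6 H3K9me2 calls 2 were kept without either KO value, and Heyl was not among them, and between 3 and 5 of the 15 H3K27me3 calls were kept with a single value left out. Vwf kept its H3K27me3 call without each of the 4 values in turn, but lost it with scaled libraries. Differences between these lists were not tested.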

How the data were processed

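ChIP-seq of G9a, H3K9me2, H3K27me3 and Mef2c was done in 2 KO and 2 Cre libraries per target. Per the submitters' processing notes, BWA 0.7.10-r789, SAMtools 1.1 and the build mm10 (GRCm38) were used. The authors deposited 1 list of differing regions per target, each region with 4 values and a score, the -log10 p of their comparison. The caller, the scale, any normalization and any use of the inputs are not given in the sources read here. The values were therefore not handled as counts, and their depth is unknown. Cre before KO was read from the list names in the labels. The series' design text names H3K27me2 where its title and the labels name H3K27me3, and the labels were followed.

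A region belonged to a gene where it touched its RefSeq span (GRCm38.p6) or the 10 kb on either side. limma 3.58.1 in R 4.3.3 (trend, log2 of the value plus 1) was fitted per target over all listed regions, and over the sums of all protein-coding genes with a region, with Benjamini-Hochberg adjustment at 0.05. It was tested on simulated data. Alternatives were the span alone, 2 kb flanks, regions at least 50% inside, a -log10 p of at least 5, a mean of at least 50, a pseudocount of 10, scaled libraries and leaving out each value. The alternatives for the other lists, and Pdgfrb without 1 flank region, were added after seeing the data. The regions named were mostly those with the highest -log10 p for a gene and target or over a start, and not every such region is printed. Of the other lists at most the 2 genes with the largest ratio for a target were named, and Myh6 and Myh7 after the data were seen. The members and lists were chosen with earlier results of these data known. RefSeq promoters on GRCm38.p6 gave starts and strands for 7 genes, and Myh11, Tagln and Pdgfrb are placed by span only.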

Additional observations from a re-analysis of the deposited data

How the results depend on the processing

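Most values kept their direction and their side of the threshold, but scaling the libraries changed the sign of many sums of a gene. The side of the threshold was easily kept, since 37 of the 40 sums were not called. All 186 recomputed values of single regions under other settings kept direction and side. They were the strongest regions of a gene and target and those over a start, and only scaling the libraries could change their direction. Among recomputed sums of a gene under other settings, 240 kept both, 32 changed sign, and 4 lost and 3 gained the call. Most of these changes of sign came with scaling the libraries of a target to the same median. Under it the log2 ratio was 0.21 at Myh11, 0.26 at Tagln, 0.28 at Kcnj8 and 0.31 at Abcc9 for G9a, and -0.14 at Acta2, -0.23 at Cnn1, -0.11 at Rgs5 and -0.11 at Abcc9 for H3K9me2. For H3K27me3 it was 0.18 at Myh11, 0.11 at Pdgfrb, 0.077 at Cspg4, 0.29 at Notch3 and 0.25 at Kcnj8, and for Mef2c 0.20 at Tagln, 0.13 at Cnn1, 0.15 at Pdgfrb, 0.064 at Rgs5, 0.094 at Cspg4, 0.076 at Notch3 and 0.0078 at Kcnj8. The genes lower in KO were then 4 for G9a, 7 for H3K9me2 and 1 each for H3K27me3 and Mef2c, the calls of H3K27me3 and Mef2c went to 0, and 62.4% of H3K9me2 regions had their values apart. Other sign changes, all without a call, were -0.062 for G9a and -0.064 for H3K9me2 at Cnn1 with 2 kb flanks, -0.23 at Cnn1 for H3K9me2 with the span alone, 0.92 at Abcc9 for G9a with either, 0.57 at Kcnj8 for H3K9me2 with the span alone and 0.042 at Notch3 for H3K27me3 with either. A mean value of at least 50 gave 0.058 at Tagln for G9a. With a -log10 p of at least 5 the ratio was 0.30 at Kcnj8 for G9a, -0.051 at Cnn1 for H3K9me2 and 0.026 at Notch3 for H3K27me3. That stricter choice also raised the share of regions with values apart to 85.1% for Mef2c, 78.3% for H3K27me3, 87.5% for H3K9me2 and 76.2% for G9a, and the genes called to 3 for H3K9me2 and 2 for Mef2c. The span alone and 2 kb flanks left 0 genes called for H3K9me2. In each case the cause was not tested.

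With 1 value left out, the remaining lone value is assumed to vary like the others. For G9a the log2 ratio then ranged from -0.33 to 0.082 at Myh11, -0.089 to 0.46 at Acta2, -0.45 to 0.21 at Tagln, -0.090 to 0.24 at Cnn1, -1.02 to 0.16 at Pdgfrb, -0.24 to 0.16 at Kcnj8 and -0.046 to 0.014 at Abcc9. For H3K9me2 it ranged from -0.30 to 0.70 at Acta2, -0.075 to 0.20 at Cnn1 and -0.63 to 0.091 at Kcnj8. For H3K27me3 it ranged from -0.0030 to 1.26 at Acta2, -0.21 to 0.18 at Notch3, -0.17 to 0.10 at Kcnj8 and -0.37 to 0.45 at Abcc9, and for Mef2c from -0.32 to 0.046 at Tagln and -0.41 to 0.073 at Cnn1. The ratios that had passed the threshold kept their sign, from 1.53 to 1.59 for H3K9me2 at Tagln, -0.52 to -0.39 for H3K27me3 at Rgs5 and -0.75 to -0.40 for Mef2c at Myh11. The number of genes lower in KO for G9a ranged from 5 to 9, the number called from 0 to 1 for every target, and the number of G9a regions called from 0 to 26. Over all genes, 0 G9a sums passed the threshold, but 3545 did when the first KO value was left out, 146 when the second was, 4 without the first Cre value and 0 without the second Cre value. The calls over all genes, which give the background shares, moved too. For H3K27me3 3600 genes were called, but 455 with scaled libraries and from 1141 to 1936 with a value left out. For Mef2c it was 2279, but 573 with scaled libraries, 41 and 55 without a Cre value and 3985 without the second KO value. For H3K9me2 it was 1602, but 918 with scaled libraries, 97 and 48 without a KO value and 2585 without the first Cre value. The span alone gave 1634, 653 and 158 in that order and a -log10 p of at least 5 gave 5338, 5012 and 3682. No paired analysis was possible because the deposited values carry no replicate number.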
